A study of Mus musculus with 19 samples.

Results

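The 35 interferon-stimulated genes described here are genes outside the OAS family whose transcription rises when cells respond to interferon, and each was read by its symbol from all 19 gene count files of the series. All 35 symbols were present among the 24421 genes counted, and all 35 passed the minimum of 10 reads in total that preceded every test. They comprised 6 sensors of foreign nucleic acid, 4 transcription factors, 13 antiviral effectors, 7 genes of the ISG15 and ubiquitin system and 5 other induced proteins.

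Total RNA from the mammary gland of pregnant mice was sequenced in 6 groups, each library labelled as a separate sample. The labels give the strain as C57BL/6 and the study's methods as C57BL/6N. WT mice were sampled at pregnancy day 6 (p6, n = 3) and day 18 (p18, n = 3). Mice with a homozygous deletion of the Csn1s2b super-enhancer, a cluster of enhancers that the labels call Enhancer-delS1-4 and that is written ΔSE here, were sampled at p6 (n = 4) and p18 (n = 4). The 2 other lines, delCsn3-PE (n = 2) and delCsn1s2b-E (n = 3), are named for an element of the Csn3 and of the Csn1s2b gene and were labelled p18. The study states that its lines were made by genome editing of embryos and that its mice were 8 to 12 weeks old. It does not describe the delCsn3-PE and delCsn1s2b-E libraries. No source used here says whether a line goes back to 1 founder or whether glands of several mice were pooled. Csn3 and Csn1s2b encode caseins, the main milk proteins, which the gland makes in rising amounts late in pregnancy.

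Facts that touch every value came first. Libraries of WT and ΔSE mice held 12335272 to 20525175 reads in genes, of which Rn45s, the ribosomal RNA precursor, took 21.7% to 42.9%, while those of delCsn3-PE and delCsn1s2b-E mice held 26848053 to 30329601 reads with 0.0765% to 0.924% in Rn45s. The 2 single-element lines therefore form a set of their own with no WT library in it, and in any comparison of them with WT the genotype and the set cannot be told apart. Only the comparison of delCsn1s2b-E with delCsn3-PE stays within that set. Its 2 lines still differed in Rn45s without overlap, at 0.145% and 0.0765% in delCsn3-PE and 0.698%, 0.924% and 0.410% in delCsn1s2b-E. One protocol label of these 5 libraries speaks of lactating wild type tissue, which goes against their p18 label, so their stage is given as labelled. Csn3, the gene named in the delCsn3-PE label, stood at 1358 and 276 normalized CPM in the delCsn3-PE libraries and at 5168 to 6707 in WT at p18. Csn1s2b stood at 27.8, 51.5 and 36.8 in delCsn1s2b-E against 217, 65.5 and 42.7 in WT at p18, so that these 2 groups overlapped. In delCsn3-PE Csn1s2b stood at 230 and 122, above all 3 delCsn1s2b-E libraries. Csn3 stood at 13258, 20765 and 14194 in delCsn1s2b-E, above all 3 WT libraries at p18. In ΔSE at p18 Csn1s2b stood at 6.94, 15.7, 3.34 and 2.62 and Csn3 at 146, 130, 52.9 and 50.1. In ΔSE at p6 Csn1s2b stood at 0.113, 0.105, 0 and 9.95, so that replicate 4 was apart from the rest of its group.

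Cells sense viral RNA or DNA with cytosolic receptors such as RIG-I and MDA5, whose signal leads to the secretion of type I interferon. Interferon binds its receptor, the kinases JAK1 and TYK2 are activated, and a transcription factor complex that holds STAT2 and IRF9 binds the interferon-stimulated response element (ISRE) in the promoters of its target genes. Many targets are themselves sensors and transcription factors of the same pathway, and healthy tissue keeps them at a low basal level that depends on tonic interferon signaling.

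The ISRE was looked up first, because it is the sequence through which most of these genes are known to be induced. Promoters of 300 bases (250 before the start site and 50 from it on) were taken from RefSeq on GRCm38.p6 and held 25 of the 35 genes. Dhx58, Zbp1, Mx1, Mx2, Rtp4, Usp18, Parp9, Parp14, Ifi27 and Ifi27l2a had no entry. A match to the ISRE core, GAAA, any 2 bases and GAAA again, on either strand stood in 14 of the 25 promoters (56%), against 3.44% of all 32851 promoters in the table. The gamma-interferon site, TTC, any 3 bases and GAA, stood in 5 of 25 (20%) against 8.3% of all promoters, and 1 ISRE match overlapped such a site. Genes on both sides of the result below carried the ISRE, as the following windows show on the strand of each gene, 5′ to 3′, with every match in capitals. The first 5 belong to genes that were lower in delCsn1s2b-E than in WT, the last 3 to genes that were not. Relative to the start site, matches of the first 5 began between −222 and −66 bases. Those of the last 3 began after it, at 2 (Ddx58), 32 (Ifih1) and 18 (Eif2ak2). Rsad2 and Slfn5, also not lower, had matches at −120 and −155 that are not shown.
Ifit1, chr19:34640765-34640833, plus strand: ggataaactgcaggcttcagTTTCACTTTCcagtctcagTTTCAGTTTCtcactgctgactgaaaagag
Ifit3, chr19:34583353-34583436, plus strand: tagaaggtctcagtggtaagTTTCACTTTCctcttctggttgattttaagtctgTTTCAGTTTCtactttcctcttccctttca
Isg15, chr4:156200855-156200916, minus strand: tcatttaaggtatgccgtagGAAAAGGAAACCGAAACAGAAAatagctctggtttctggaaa
Bst2, chr8:71537567-71537622, minus strand: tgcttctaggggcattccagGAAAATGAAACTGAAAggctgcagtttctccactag
Stat2, chr10:128270256-128270305, plus strand: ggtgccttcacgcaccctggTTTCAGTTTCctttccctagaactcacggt
Ddx58, chr4:40239794-40239843, minus strand: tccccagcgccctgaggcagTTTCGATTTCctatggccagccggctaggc
Ifih1, chr2:62646206-62646243, minus strand: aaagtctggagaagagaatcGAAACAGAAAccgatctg
Eif2ak2, chr17:78882525-78882574, minus strand: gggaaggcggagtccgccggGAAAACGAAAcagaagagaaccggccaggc
Isg15 held 3 overlapping matches in a row and Ifit1 held 2 that were 19 bases apart. Ifit3b, at chr19:34607749-34607832, carried the same 84 letters as the window of Ifit3.

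In delCsn1s2b-E mammary tissue 23 of the 35 genes were lower than in WT at p18 and none was higher (edgeR's quasi-likelihood test, Benjamini-Hochberg adjusted over all genes tested). Across all 17125 genes tested, 15.0% were called lower and 32.3% were called in either direction. The median log2 fold change of the 35 genes was −1.20, against −0.00 over all genes. Against delCsn3-PE, the other line of the same set, 18 of the 35 genes were lower and none was higher, where 0.169% of all genes were called lower and 0.181% were called at all. These were 18 of only 29 genes called lower in that comparison, with 4 of the remaining 11 in the OAS family. All 18 were among the 23 lower than in WT. Called or not, all 35 genes had negative log2 fold changes against delCsn3-PE, from −4.21 to −0.04. In 26 of the 35 every delCsn1s2b-E library lay below both delCsn3-PE libraries, a pattern that 9.51% of all genes tested showed. Both comparisons use the same delCsn1s2b-E libraries, so they are not independent of each other. The 35 genes and the lists were chosen with earlier results of these data known, so these shares are given as a description.

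The plot of all genes by library shows where the low values sit. In 22 of the 35 genes the 3 delCsn1s2b-E libraries lay below each of the other 16 libraries of the series, p6 and ΔSE included, a pattern that 1.74% of all genes tested showed. The mean of log2(normalized CPM + 1) over the 35 genes was 3.18 to 3.30 in the delCsn1s2b-E libraries and 4.15 to 4.54 in the others.

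**Figure D1:**
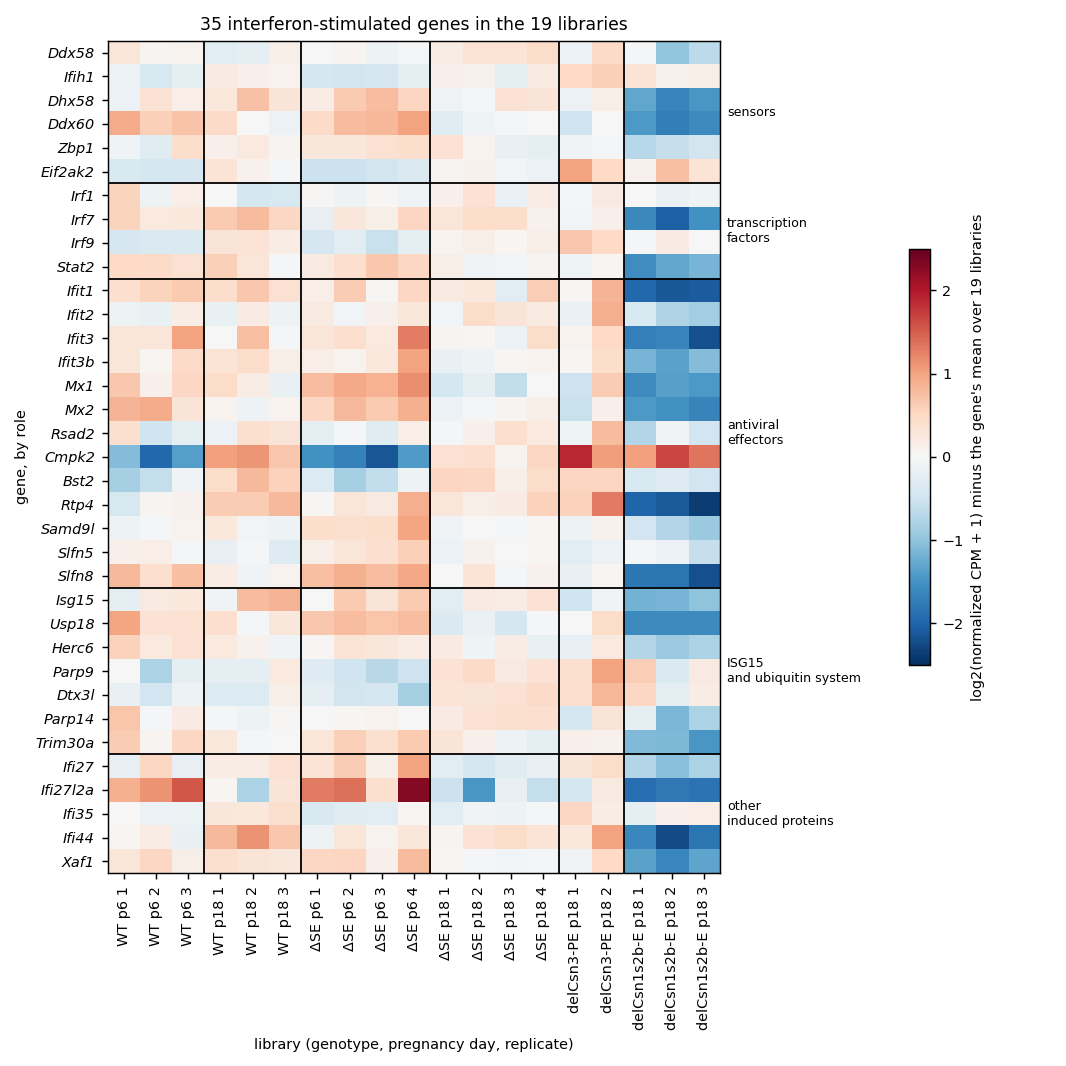
Heat map of the 35 interferon-stimulated genes (rows, by role) in the 19 libraries (columns, by genotype, pregnancy day and replicate); color is log2(normalized CPM + 1) minus the gene's mean over the 19 libraries. The 3 delCsn1s2b-E columns are blue for most genes, with Cmpk2, Parp9, Dtx3l, Ifih1 and Eif2ak2 among the exceptions, and Cmpk2 is lowest at p6.

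Levels are given throughout as normalized CPM, counts per total reads after TMM scaling across the 19 libraries, and a difference between groups as a log2 fold change with its standard error (SE). In a bulk sample, fewer cells that express these genes and less of their RNA per cell cannot be told apart.

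Among the sensors, Dhx58, Ddx60 and Zbp1 were lower than in WT and Ddx58, Ifih1 and Eif2ak2 were not called. Dhx58 encodes LGP2, a helicase that tunes signaling by RIG-I and MDA5. It stood at 6.54, 9.41 and 6.86 in WT at p18, at 4.64 and 5.96 in delCsn3-PE and at 1.55, 1.00 and 1.30 in delCsn1s2b-E. The highest delCsn1s2b-E library was thus below the lowest of both other groups. The log2 fold change was −2.61 (SE 0.24, adjusted p = 0.000133) against WT and −2.04 (SE 0.26, adjusted p = 0.00776) against delCsn3-PE. Ddx60, a helicase linked to RIG-I signaling, stood at 3.87, 2.93 and 3.35 in delCsn1s2b-E against 10.8 to 17.3 in WT and 8.30 and 12.1 in delCsn3-PE, and was lower in both comparisons. Zbp1, a sensor of Z-form nucleic acid that can start cell death, stood at 2.23 to 2.81 in delCsn1s2b-E and 4.52 to 5.19 in WT. It was called against WT alone, with log2 fold changes of −1.0 and −0.69 in the 2 comparisons.

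The 2 receptors that start the pathway were not called. Ifih1, which encodes MDA5, stood at 60.1, 57.4 and 55.6 in WT at p18, at 74.4 and 79.7 in delCsn3-PE and at 66.9, 56.1 and 58.0 in delCsn1s2b-E, and its log2 fold change against WT was 0.00 (SE 0.12, adjusted p = 0.994). The delCsn1s2b-E values overlapped those of WT and lay below both delCsn3-PE values. Ddx58, which encodes RIG-I, had overlapping groups at 46.4, 48.0 and 62.1 in WT and 54.1, 27.8 and 35.3 in delCsn1s2b-E. Eif2ak2 encodes PKR, the kinase that stops translation on double-stranded RNA, and its 3 delCsn1s2b-E libraries at 55.6, 87.0 and 65.7 overlapped those of WT at 65.1, 55.6 and 50.3.

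Of the 4 transcription factors, Irf7 and Stat2 were lower in delCsn1s2b-E than in both other groups and Irf1 and Irf9 were not called in either comparison. Irf7, the factor that amplifies transcription of the interferon alpha genes, stood at 19.1, 21.2 and 17.2 in WT at p18, at 11.2 and 12.9 in delCsn3-PE and at 3.19, 2.12 and 3.48 in delCsn1s2b-E. The 3 groups did not overlap, with delCsn3-PE in between. Its log2 fold change was −2.77 against WT (SE 0.20, adjusted p = 3.65e-05) and −2.04 against delCsn3-PE (SE 0.21, adjusted p = 0.00219). Stat2 supplies the transactivation domain of the complex that binds the ISRE. It stood at 39.3, 31.9 and 24.8 in WT, at 23.8 and 26.7 in delCsn3-PE and at 8.14, 9.96 and 11 in delCsn1s2b-E, each delCsn1s2b-E value below all of the others. The log2 fold change of Stat2 was −1.79 (SE 0.19, adjusted p = 0.00024) against WT and −1.39 (SE 0.20, adjusted p = 0.02) against delCsn3-PE. Irf9, the DNA-binding subunit of the same complex, stood at 38, 44.9 and 39.2 in delCsn1s2b-E and at 49.0, 49.8 and 44.5 in WT, with 1 delCsn1s2b-E library above the lowest WT library (log2 fold change −0.30, SE 0.11, adjusted p = 0.0671). In delCsn3-PE Irf9 stood at 62.7 and 55.4, above all 3 delCsn1s2b-E libraries. Irf1, a factor that also responds to interferon gamma, stood at 36.7 to 41.9 in delCsn1s2b-E and 30.3 to 41.1 in WT.

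Among the antiviral effectors 9 of 13 were lower than in WT and 8 of 13 lower than in delCsn3-PE. Rtp4, a membrane-associated chaperone that also restrains viral RNA, stood at 11.4, 11.4 and 13.0 in WT at p18, at 10.9 and 18.5 in delCsn3-PE and at 0.990, 0.854 and 0.535 in delCsn1s2b-E. No delCsn1s2b-E library reached 1 normalized CPM, while every other library of the series lay between 4.98 and 18.5. Its level was 15.6-fold lower than in WT (log2 fold change −3.96, SE 0.27, adjusted p = 3.65e-05) and 18.5-fold lower than in delCsn3-PE (−4.21, SE 0.28, adjusted p = 0.000203). Rtp4 spans chr16:23520291-23614222 on the plus strand in the GENCODE vM21 annotation, where it overlaps Masp1 on the other strand.

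The Ifit genes lie side by side on chromosome 19 and encode proteins that bind viral RNA lacking the host's cap methylation. Ifit1 stood at 11.2, 13.5 and 10.9 in WT at p18, at 8.30 and 15.4 in delCsn3-PE and at 1.33, 1.08 and 1.14 in delCsn1s2b-E. The log2 fold change was −3.38 (SE 0.26, adjusted p = 4.64e-05) against WT and −3.33 (SE 0.27, adjusted p = 0.000462) against delCsn3-PE. Ifit3 stood at 7.71, 13.4 and 7.29 in WT, at 8.16 and 11.2 in delCsn3-PE and at 1.64, 1.75 and 0.870 in delCsn1s2b-E, and was 6.97-fold lower than in WT and 6.87-fold lower than in delCsn3-PE (−2.78, SE 0.33, adjusted p = 0.00547). Ifit3b gave −2.73 (SE 0.30, adjusted p = 0.000323) and −2.58 (SE 0.32, adjusted p = 0.00672). Of the 50-base stretches of Ifit3, 51.2% also occur in Ifit3b, and 45% of those of Ifit3b occur in another gene. Reads from shared stretches could be left uncounted or be assigned to either gene, so the separate values of this pair are uncertain. Ifit2, at one end of these 4 genes, differed from its neighbors in its call. Its libraries lay at 10.4, 7.76 and 7.06 in delCsn1s2b-E and at 12, 16 and 12.5 in WT without overlap, yet it was not called (−0.74, SE 0.28, adjusted p = 0.0607). In delCsn3-PE Ifit2 stood at 12.2 and 26.6, also without overlap.

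Mx1 and Mx2, dynamin-like GTPases that trap viral ribonucleoproteins, were near the limit of detection in delCsn1s2b-E. Mx1 had 5, 9 and 8 reads there, or 0.155, 0.334 and 0.268 normalized CPM, against 2.02 to 3.72 in WT. Mx2 had 7, 4 and 1 reads, or 0.217, 0.149 and 0.0335, against 2.01 to 2.5 in WT. In delCsn3-PE, Mx1 stood at 1.37 and 4.30 and Mx2 at 1.23 and 2.58, so that every delCsn1s2b-E library was below both other groups for each gene. A count of 3 reads corresponded to 0.0805 to 0.281 normalized CPM in the 19 libraries, and at these counts the fold carries a wide error (log2 fold change against WT −3.56, SE 0.52, for Mx1 and −4.13, SE 0.51, for Mx2).

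Slfn8 and Slfn5 are neighbors on chromosome 11 that encode members of the Schlafen family. Slfn8 stood between 8.76 and 10.8 in the 3 WT libraries at p18, at 8.09 and 9.66 in delCsn3-PE and at 1.98, 1.93 and 1.27 in delCsn1s2b-E, with no overlap. Its log2 fold change was −2.57 (SE 0.21, adjusted p = 6.66e-05) against WT and −2.37 (SE 0.22, adjusted p = 0.000952) against delCsn3-PE. Slfn5 stood at 79.7, 73.1 and 54.3 in delCsn1s2b-E and 70.5, 78.5 and 64.8 in WT, with overlap and log2 fold changes of −0.11 and −0.04 in the 2 comparisons.

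Bst2, or tetherin, which holds budding virions at the cell surface, stood at 15.1, 15.7 and 14 in delCsn1s2b-E against 27.7 to 35.8 in WT and 29.2 and 29.5 in delCsn3-PE, and was lower in both comparisons, by 2.19-fold and 1.98-fold, the call against delCsn3-PE being lost in 9 of 14 alternative analyses. Samd9l, an antiviral and growth-restraining protein, stood at 20.6 to 28.5 against 36.5 to 47.9 in WT and was lower than in WT alone. Rsad2, which encodes viperin, and Cmpk2, a mitochondrial nucleotide kinase, lie head to head on chromosome 12 with 12752 bases between their start sites. Rsad2 stood at 7.92, 12.8 and 9.54 in delCsn1s2b-E and 12.4, 18.6 and 17.4 in WT, 1 library of each group overlapping, and just missed the threshold (−0.75, SE 0.26, adjusted p = 0.0509). Cmpk2 stood at 81.5, 128 and 100.98 in delCsn1s2b-E, at 81.7, 86.3 and 63.4 in WT and at 148 and 82.6 in delCsn3-PE, so its groups overlapped throughout.

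In the ISG15 and ubiquitin system 5 of 7 genes were lower than in WT and 2 of 7 lower than in delCsn3-PE. Usp18, the protease that removes ISG15 from proteins and dampens the interferon receptor, stood at 5.85, 4.03 and 5.27 in WT at p18, at 4.12 and 6.04 in delCsn3-PE and at 0.712, 0.706 and 0.703 in delCsn1s2b-E. Its log2 fold change was −2.89 (SE 0.26, adjusted p = 0.000114) against WT and −2.85 (SE 0.27, adjusted p = 0.0011) against delCsn3-PE. Isg15 itself, the ubiquitin-like modifier, stood at 1.65, 3.90 and 4.04 in WT, at 0.985 and 1.66 in delCsn3-PE and at 0.247, 0.260 and 0.402 in delCsn1s2b-E. Although its delCsn1s2b-E libraries lay below all others, the difference was called against WT (−3.45) and not against delCsn3-PE (−2.13, SE 0.47, adjusted p = 0.205).

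Trim30a, a TRIM-family regulator of innate signaling, was the second gene of this group that was lower in both comparisons. It stood at 24.3, 19.7 and 20.3 in WT, at 22.2 and 21.7 in delCsn3-PE and at 8.88, 8.73 and 6.73 in delCsn1s2b-E, with log2 fold changes of −1.46 (SE 0.15, adjusted p = 0.000248) and −1.44 (SE 0.17, adjusted p = 0.00447). Herc6, the mouse ligase that attaches ISG15, stood at 5.83 to 6.81 in delCsn1s2b-E against 11.2 to 14.2 in WT and 10.2 and 14.3 in delCsn3-PE, and was called against WT alone. Parp14, a mono-ADP-ribosyltransferase, stood at 80.9, 42.9 and 54.4 against 86.7 to 97.0 in WT and barely passed the threshold against WT (adjusted p = 0.049). Parp9 and its partner ligase Dtx3l, which start 681 bases apart on opposite strands of chromosome 16 and overlap, were not called. Dtx3l stood at 126, 74.4 and 99.98 in delCsn1s2b-E and 68.9, 69.2 and 97.2 in WT, and Parp9 at 113, 57.6 and 86.9 and 63.2, 62.0 and 87.4.

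Of the other induced proteins 4 of 5 were lower in both comparisons. Ifi44, a cytoplasmic protein with reported antiproliferative activity, stood at 11.8, 14.9 and 10.8 in WT at p18, at 7.88 and 13.9 in delCsn3-PE and at 1.36, 0.557 and 1.07 in delCsn1s2b-E. Its log2 fold change was −3.69 (SE 0.33, adjusted p = 0.000113) against WT and −3.43 (SE 0.34, adjusted p = 0.0015) against delCsn3-PE. Xaf1, a pro-apoptotic antagonist of XIAP, stood at 7.23, 6.82 and 6.60 in WT, at 4.86 and 7.79 in delCsn3-PE and at 1.45, 1.00 and 1.51 in delCsn1s2b-E (−2.43, SE 0.25, adjusted p = 0.000208 and −2.26, SE 0.26, adjusted p = 0.00447). Ifi27, a small membrane protein, stood at 57.0, 57.4 and 65.4 in WT, at 62.7 and 69.0 in delCsn3-PE and at 29.6, 23.8 and 28.3 in delCsn1s2b-E (−1.20, SE 0.13, adjusted p = 0.000257 and −1.28, SE 0.14, adjusted p = 0.00281). Its neighbor Ifi27l2a stood at 5.88, 6.54 and 6.22 in delCsn1s2b-E and between 14 and 31.4 in WT. Ifi35, an inducible leucine zipper protein, was the exception in its call, at 18.2, 23.7 and 24.7 in delCsn1s2b-E against 26.4 to 29.2 in WT (−0.37, SE 0.15, adjusted p = 0.0782). In delCsn3-PE Ifi35 stood at 31.5 and 24.9, above all 3 delCsn1s2b-E libraries.

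**Figure D2:**
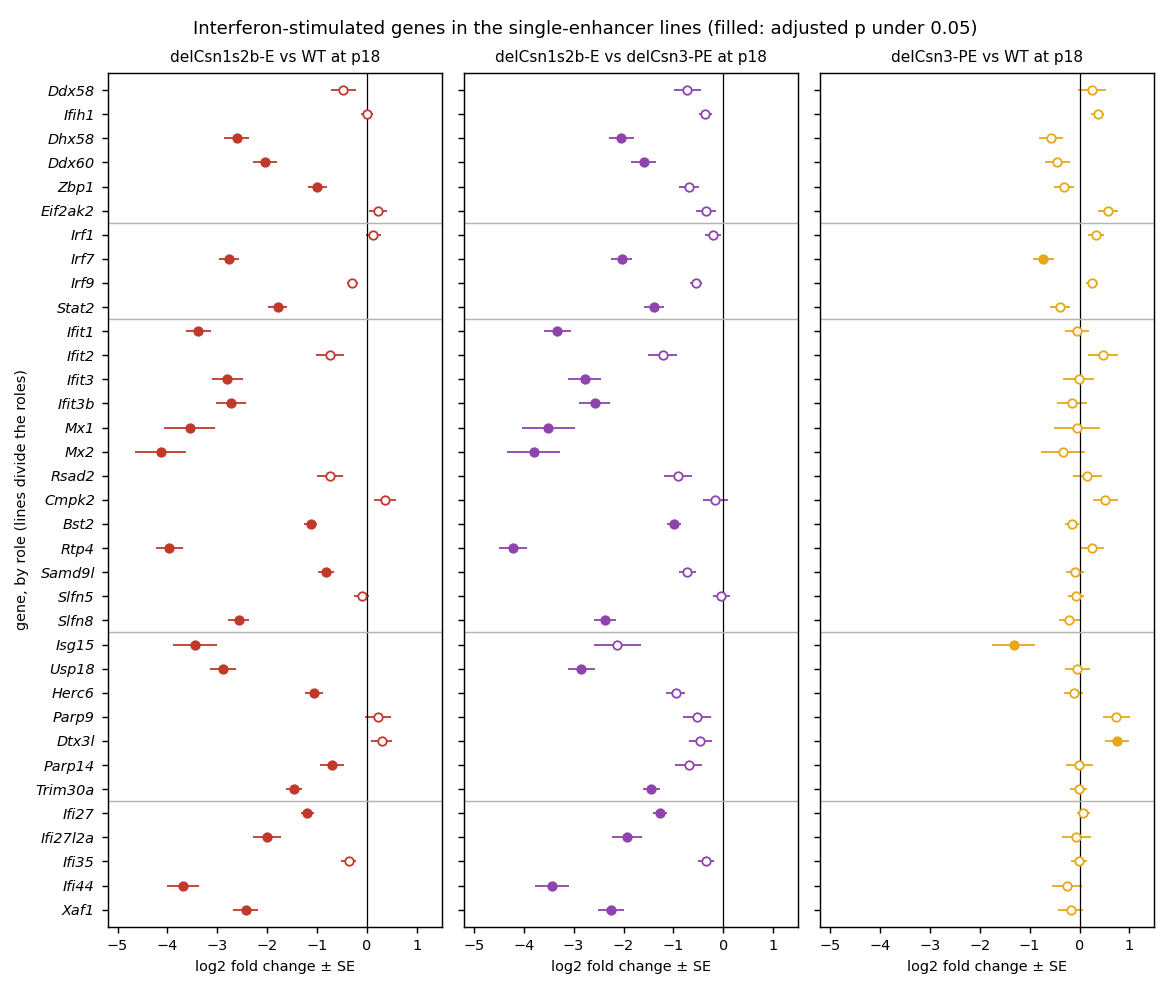
Log2 fold change ± SE (x axis) of the 35 genes (rows, by role) for delCsn1s2b-E against WT, delCsn1s2b-E against delCsn3-PE and delCsn3-PE against WT at p18, with filled points where the adjusted p was under 0.05. In the first 2 panels 23 and 18 genes are filled, all left of 0, while the third panel has 3 filled genes on both sides of 0.

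**Figure D3:**
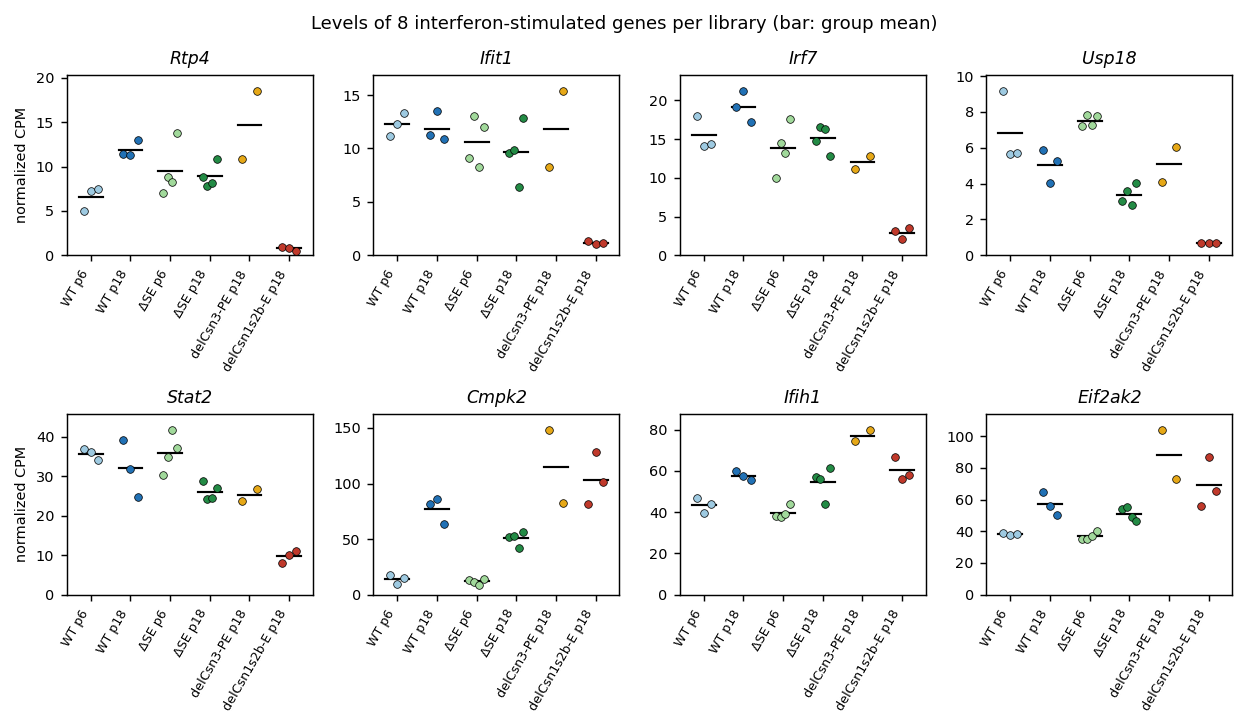
Normalized CPM (y axis, from 0) of 8 genes in each library, by group, with a bar at the group mean. The delCsn1s2b-E points for Rtp4, Ifit1, Irf7, Usp18 and Stat2 lie below every other point, whereas those for Cmpk2, Ifih1 and Eif2ak2 overlap the WT points at p18.

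The count against WT was 22 to 25 when any 1 library was left out. Against delCsn3-PE, a group of 2 libraries, it was 10 without delCsn3-PE replicate 2, 11 without delCsn1s2b-E replicate 3 and 4 when the 2 groups were fitted without WT, the 4 being Rtp4, Ifit1, Slfn8 and Usp18. These 4 were also the only ones of the 18 called in all 14 alternative analyses of that comparison. The call was lost in 9 of the 14 for Bst2, in 8 for Ifi27l2a, in 7 for Ddx60 and in 6 each for Stat2 and Mx1, while the direction held in each. Of the 35 genes 30 were higher in delCsn3-PE replicate 2 than in replicate 1.

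The WT levels of the genes differed by call. Per kb of exon, the 18 genes lower in both comparisons had a median of 3.44 normalized CPM per kb in WT at p18 (range 0.645 to 51.3), the 5 lower than in WT alone a median of 4.23 and the 12 lower in neither a median of 10.01 (range 3.44 to 18.5). The exceptions among the 18 were Ifi27l2a, Ifi27 and Bst2, which were the highest of all 35 genes per kb at 51.3, 40.9 and 34.6. Within the promoters on hand, the ISRE stood in 8 of 11 genes lower in both comparisons (72.7%), in 1 of 3 lower than in WT alone and in 5 of 11 lower in neither (45.5%). Such small groups, made from the calls themselves, are given as a description.

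Upstream of these genes the pathway was read from lists of ligands, receptors and regulators. Of 21 interferon genes in the files, 13 had no read in any of the 19 libraries, Ifnb1 among them, 4 had fewer than 10 reads in all, and 4 had 10 or more (Ifna13, Ifnk, Ifne and Ifng). At this depth interferon beta transcripts were not detected in any library. Ifnk, an interferon of epithelium, stood at 1.65, 0.649 and 1.117 in WT at p18, at 0.176 and 0.188 in delCsn3-PE and at 0.371, 0.371 and 0.268 in delCsn1s2b-E. It was lower than in WT (adjusted p = 0.0119) with both single-element lines below all 3 WT libraries, and did not differ detectably between the lines (0.86, SE 0.56).

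Of 11 receptor and JAK-STAT genes 3 were higher than in WT and 1 lower, and none was called against delCsn3-PE. Over all genes tested 17.2% were called higher than in WT and 15.0% lower, and 0.181% were called against delCsn3-PE. Jak2 (0.64, SE 0.12, adjusted p = 0.00376) and Ifngr1 were higher and Tyk2 (−0.77, SE 0.13, adjusted p = 0.00214), a kinase at the type I receptor, was lower. Of 13 adaptors and kinases that lead to interferon, 3 were lower than in WT (Irf5, Irf3 and Tlr9), and of 11 negative regulators 1 was higher (Rnf125) and 4 were lower, led by the nuclease Trex1 (−1.68, SE 0.23, adjusted p = 0.000919) and the RNA editor Adar (−0.82). None in these 2 lists was called against delCsn3-PE.

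Genes that answer mainly to interferon gamma, and genes of antigen presentation, were read the same way. The shares over all genes were again 17.2% higher and 15.0% lower than in WT, and 0.181% called against delCsn3-PE. Of 13 interferon gamma GTPases 5 were lower than in WT, all of the guanylate-binding family, and none was called against delCsn3-PE. None of 7 chemokines of the interferon response was called in either comparison. In antigen presentation 2 of 15 were higher than in WT (B2m and H2-D1) and 6 lower, with Psmb10, a subunit of the immunoproteasome, the first by p (−1.53, SE 0.14, adjusted p = 0.00014), and none was called against delCsn3-PE. In the OAS family, the synthetases that activate the nuclease RNase L, 7 of 10 genes tested were lower than in WT and 4 of 10 lower than in delCsn3-PE. Oas1a and Oas1g had 0 reads in all 3 delCsn1s2b-E libraries and Oas2 had 1, 2 and 4.

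**Figure D4:**
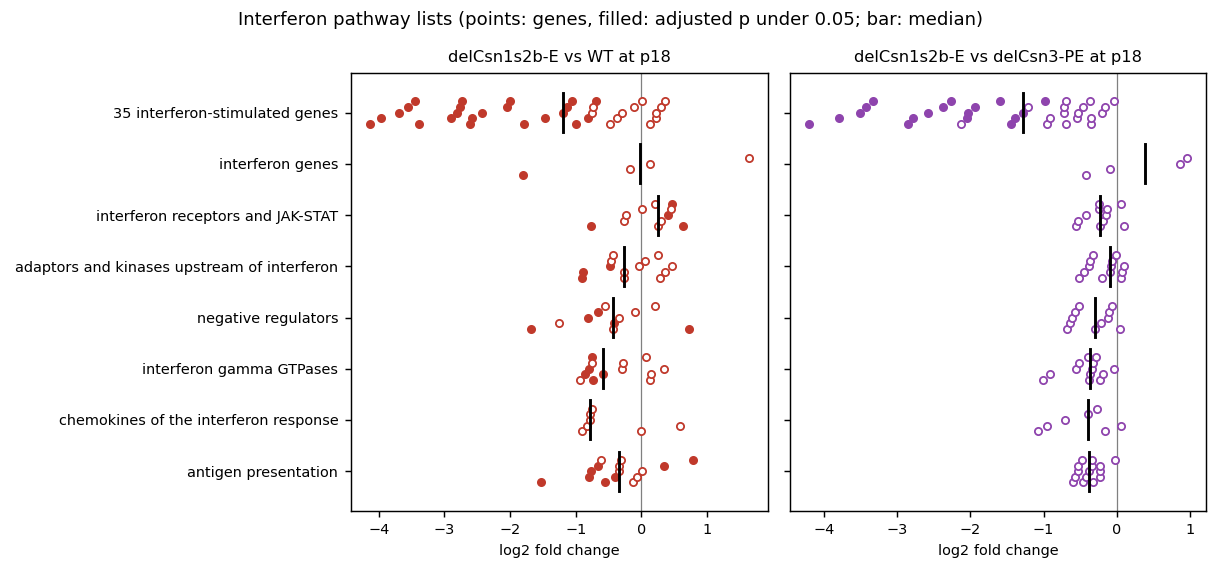
Log2 fold change (x axis) of each gene tested in the 35 interferon-stimulated genes and in 7 other lists of the interferon pathway (rows), the OAS family not being drawn, for delCsn1s2b-E against WT and against delCsn3-PE at p18. Filled points had an adjusted p under 0.05, black bars are list medians, and among the lists drawn the right panel has filled points in the 35 genes alone.

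Markers of the cells that the tissue could hold were read beside these counts. Over all genes tested 15.0% were called lower than in WT and 0.181% were called against delCsn3-PE. The summed level of 8 macrophage markers was 177 to 242 normalized CPM in delCsn1s2b-E, 233 to 265 in delCsn3-PE and 241 to 314 in WT at p18, and 4 of the 8 were lower than in WT while none was called against delCsn3-PE. Their median log2 fold change was −0.48 against WT and −0.39 against delCsn3-PE. C1qa, C1qb and C1qc gave −0.62, −0.59 and −0.61 against delCsn3-PE, with every delCsn1s2b-E library below both delCsn3-PE libraries. Markers of T and NK cells summed to 21.6 to 23.5 in delCsn1s2b-E, 22.1 to 25.7 in delCsn3-PE and 13.6 to 20.1 in WT. The 6 B and plasma cell markers summed to 8.69 to 19.9, 66.2 to 94.5 and 3.78 to 7.92 in the same order. Jchain, the joining chain of secreted antibodies, made up most of that sum, and was higher in delCsn1s2b-E than in WT (1.74, SE 0.38, adjusted p = 0.00647) and lower than in delCsn3-PE (−2.61, SE 0.37, adjusted p = 0.02), 1 of the 29 genes lower in that comparison. Plasmacytoid dendritic cell markers, of cells known to secrete type I interferon, summed to 89.3 to 114, 66.8 to 79.9 and 85.6 to 94.1, nearly all of it Tcf4, which other cells also express. The 4 markers tested had a median log2 fold change of −0.87 against WT and −0.36 against delCsn3-PE. Of these, Ccr9 was lower than in WT, at 0.53 to 0.94 against 1.22 to 2.48 (−1.26, SE 0.38, adjusted p = 0.0293), Siglech (−0.71) and Spib (−1.03) were not called, and none was called against delCsn3-PE. The part of these markers in the result was not tested. Luminal epithelial markers were present in all groups, at 1843 to 2329 in delCsn1s2b-E and 1490 to 2012 in WT. Elf5 made up the largest part, at 804 to 1291 against 585 to 802, and was not called, whereas Krt8 (−0.73, SE 0.17, adjusted p = 0.00776) and Krt19 (−0.91, SE 0.16, adjusted p = 0.00267) were lower than in WT. None of the 6 was called against delCsn3-PE.

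Few of the 35 genes were called in the other line of the set. In delCsn3-PE against WT 3 of 35 genes were called, 1 higher and 2 lower, where 25.2% of all genes were called (13.8% higher and 11.5% lower). Irf7 was lower (−0.73, SE 0.21, adjusted p = 0.0295), as was Isg15 (−1.32, SE 0.43, adjusted p = 0.0463), whose groups overlapped at 0.985 and 1.66 against 1.65 to 4.04. Dtx3l was higher at 118 and 157 against 68.9 to 97.2 (0.75, SE 0.24, adjusted p = 0.0398). Of the 18 genes lower in delCsn1s2b-E in both comparisons, the other 17 had log2 fold changes between −0.57 (Dhx58) and 0.25 (Rtp4) in delCsn3-PE. Of these 3 calls, 1 was kept without WT replicate 1, 0 without WT replicate 2 and 2 without WT replicate 3. None was kept without delCsn3-PE replicate 1 or replicate 2, where 1 and 2 other genes were called. Leaving out a library also makes any difference harder to call. With library totals alone, where the median of all genes moved to 0.42, 7 genes were called, all higher.

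Deletion of the whole super-enhancer was compared with WT within the set of libraries that held WT and ΔSE at both stages. None of the 35 genes was called in ΔSE against WT at p6, where 1.03% of 17844 genes were called, and none at p18, where 0.314% were called. At an unadjusted p under 0.05 there were 5 and 12 genes, and DESeq2 called 1 and 3. The median log2 fold change of the 35 genes was 0.06 at p6 and −0.18 at p18. At p6 Samd9l came closest, at 54.6, 52.8, 54.5 and 80.0 in ΔSE against 36.4, 38.5 and 42.5 in WT (0.64, SE 0.15, adjusted p = 0.054), and it was called by DESeq2.

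At p18 the genes closest to the threshold were Ifi35 (−0.46, SE 0.12, adjusted p = 0.112), Dtx3l (0.56, SE 0.15, adjusted p = 0.114) and Ddx58 (0.45, SE 0.12, adjusted p = 0.118), all 3 called by DESeq2. Dtx3l stood at 112, 110, 115 and 123 in ΔSE against 68.9, 69.2 and 97.2 in WT, and Ddx58 at 63.6, 71.2, 71.5 and 76.9 against 46.4, 48.0 and 62.1. Rtp4, the gene furthest from WT in delCsn1s2b-E after Mx2, stood at 8.82, 7.76, 8.18 and 10.9 in ΔSE at p18. Irf7 stood at 14.8, 16.6, 16.4 and 12.8, below all 3 WT libraries, and was not called (−0.33). In a fit of these 2 groups alone 7 genes were called, 4 higher (Dtx3l, Parp9, Parp14 and Ddx58) and 3 lower (Ifi27, Cmpk2 and Ifi35). The count was 3 at p6 without WT p6 replicate 2 and 2 at p18 without WT p18 replicate 3.

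Between p6 and p18 in WT the 35 genes were called at shares close to those of all genes. In WT 12 of the 35 were called, 8 higher (22.9%) and 4 lower (11.4%) at p18. Of all genes 29.6% were called, 17.2% higher and 12.4% lower. When 1 factor of unwanted variation estimated from the counts was added to the model, none of the 35 genes was called between the stages in WT or in ΔSE, and 71 and 0 of all genes were. Cmpk2 stood at 18.1, 9.41 and 14.6 at p6 and 81.7, 86.3 and 63.4 at p18, the largest rise of the 35 (2.49, SE 0.23, adjusted p = 2.44e-06). Irf9 rose from 29.0, 30.1 and 30.3 to 49.0, 49.8 and 44.5 (0.70, SE 0.11, adjusted p = 0.000294). Bst2 rose from 10.8, 12.9 and 18.7 to 27.7, 35.8 and 30.4 (1.16, SE 0.21, adjusted p = 0.000656). Ifi44 rose from 6.64, 7.34 and 5.49 to 11.8, 14.9 and 10.8 (0.97, SE 0.19, adjusted p = 0.00131). Eif2ak2, Rtp4, Ifi35 and Ifih1 were the other genes higher at p18, and Slfn8, Mx2, Ddx60 and Ifi27l2a the 4 lower ones, Ifi27l2a from 47.0, 55.1 and 74.6 to 25.9, 14 and 31.4.

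ΔSE tissue changed with stage too, with 20 of 35 genes called, 8 higher and 12 lower at p18, where 35.6% of all genes were called (17.3% higher and 18.3% lower). Cmpk2 rose from 13.2, 11.6, 8.22 and 14.2 to 51.5, 52.8, 42.0 and 56.6 (2.11, SE 0.20, adjusted p = 1.82e-06). Dtx3l rose from 73.8, 63.2, 65.6 and 49.1 to 112, 110, 115 and 123 (0.89, SE 0.14, adjusted p = 0.000171). Parp9, Bst2, Irf9, Eif2ak2, Ifih1 and Ddx58 were the other genes higher at p18. Mx1 fell from 4.79, 5.61, 5.22 and 6.68 to 1.5, 1.92, 1.23 and 2.42 (−1.64, SE 0.27, adjusted p = 0.000246). Ifi27l2a fell from 63.0, 66.5, 33.1 and 125 to 16.9, 8.40, 21.7 and 16 (−2.18, SE 0.36, adjusted p = 0.000267). Ddx60, Usp18, Slfn8, Ifi27, Samd9l, Mx2, Xaf1, Stat2, Slfn5 and Trim30a were the other 10 lower at p18. Cell markers differed between the stages as well. In ΔSE all 6 luminal epithelial markers were higher at p18, and 3 of 8 macrophage and all 4 skeletal muscle markers were lower. In WT 2 of the 6 luminal markers were higher, and no macrophage or skeletal muscle marker was called. The part of these markers in the stage changes was not tested.

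The genes higher at p18 in both genotypes were Cmpk2, Bst2, Irf9, Eif2ak2 and Ifih1, and those lower in both were Slfn8, Mx2, Ddx60 and Ifi27l2a. The test of whether the stage change differed between ΔSE and WT called none of the 35 genes, and 0.151% of all genes. At an unadjusted p under 0.05 there were 13, and DESeq2 called 4, namely Ddx58, Dtx3l, Parp14 and Ifi27. Without WT p6 replicate 2 the count was 6. The direction of the smaller stage changes depended on the scaling. With library totals alone the median of all genes moved to −0.42 in WT and −0.65 in ΔSE, and the calls became 2 higher and 9 lower in WT and 1 higher and 20 lower in ΔSE, Cmpk2 being higher in each and Bst2 in WT.

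**Figure D5:**
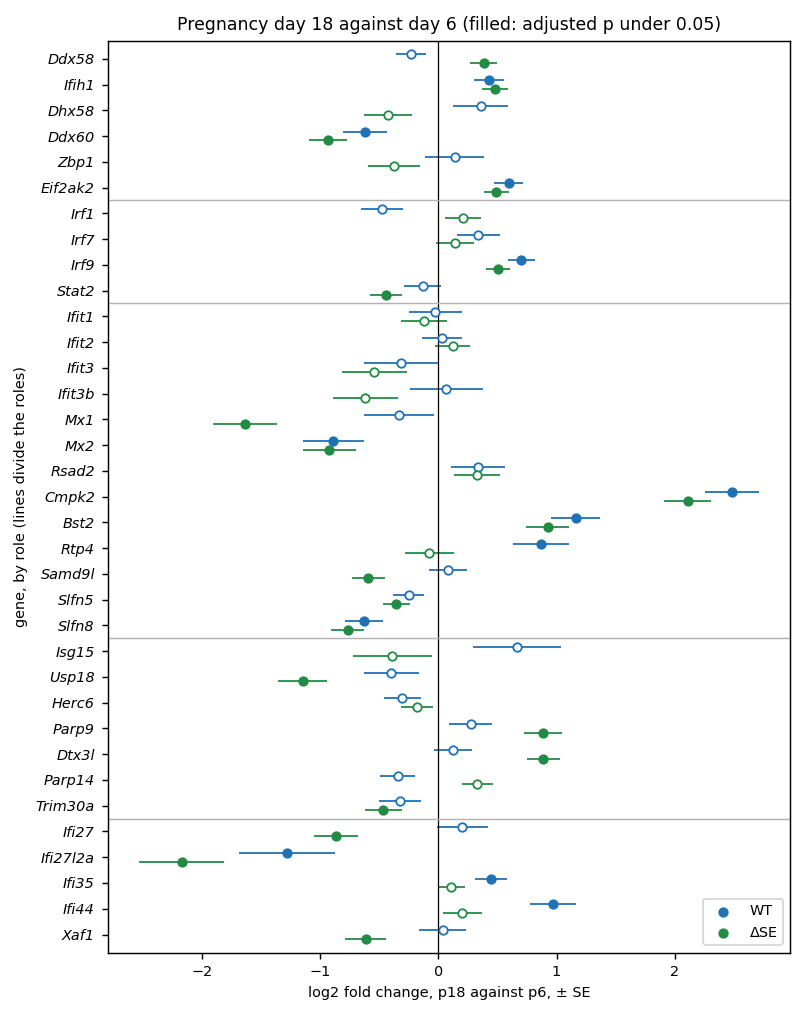
Log2 fold change ± SE (x axis) of p18 against p6 for the 35 genes (rows, by role) in WT and ΔSE, with filled points where the adjusted p was under 0.05. Cmpk2 lies furthest to the right in both genotypes, at 2.49 and 2.11, and Ifi27l2a furthest to the left in ΔSE at −2.18.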

How the data were processed

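Total RNA-seq of mammary tissue was analysed in 19 libraries. Per the labels and the study's methods, the authors prepared stranded libraries depleted of ribosomal RNA, trimmed reads with Trimmomatic, aligned them to mm10 with STAR and counted them per gene with HTSeq. The deposited values are whole-number counts per gene with no normalization. The gene annotation and the strand setting of the counting are not given in the sources used here, so reads of overlapping genes (Irf7 and Phrf1, Irf9 and Rnf31, Rtp4 and Masp1, Parp9 and Dtx3l, Slfn5 and Slfn5os) may not be told apart. Summary entries of the counter, present in 5 files, held 13.2% to 20.9% (no feature) and 8.57% to 9.62% (alignment not unique) and were left out.

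Genes with at least 10 reads in total were fitted with edgeR 4.0.16 (glmQLFit and glmQLFTest, TMM scaling) in 2 models, 1 of the 14 WT and ΔSE libraries and 1 of the 8 p18 libraries of WT, delCsn3-PE and delCsn1s2b-E. A gene was called at a Benjamini-Hochberg adjusted p under 0.05 over all genes tested. The p-values measure the spread between libraries, which the labels do not tie to single animals. Tested on simulated counts for delCsn1s2b-E against WT (16950 genes), the fit recovered 69% of the genes given a 2-fold change and 98% at 4-fold. Of its 177 calls 10 were false. The 200 changed genes did not include genes of low mean count, and the comparison with delCsn3-PE was not simulated. These shares therefore cover neither. DESeq2, other scalings, filters and sample sets were tried.

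The 35 genes and the lists were chosen with earlier results of these data known. Full statistics are given for up to 12 called genes of smallest p in each delCsn1s2b-E comparison, up to 4 in the other comparisons, and up to 3 per related list.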

Additional observations from a re-analysis of the deposited data

Results flagged for a closer look

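In the groups of 4 libraries (ΔSE at p6 and at p18), 70 sets of 4 values were examined for a library far from the other 3, and 3 stood out by Dixon's criterion, which chance alone meets in about 1 of 20 groups. All 3 were in ΔSE p6 replicate 4. Ifit3 stood at 19.9 normalized CPM there, with the nearest other library at 10.5, Ifit3b at 5.99 with the nearest at 3.16, and Samd9l at 80.0 with the nearest at 54.6. Ifit3 and Ifit3b share sequence, so their values are not independent. Csn1s2b had 201 reads in this library, or 9.95 normalized CPM, against 2, 2 and 0 reads in the rest of its group. WT at p6 stood at 1.65 to 5.01 normalized CPM. Csn3 had 118 reads in this library, against 7, 0 and 12 in the rest of its group. What sets this library apart was not tested. Of the 35 genes 24 were highest in this library among the 4 ΔSE libraries at p6. Without it the stage comparison in ΔSE called 16 genes in place of 20, with Xaf1, Stat2, Slfn5 and Trim30a no longer called, and the 8 genes higher at p18 stayed at 8.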

How the results depend on the processing

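No member changed direction while called in either delCsn1s2b-E comparison under any of the alternatives tried, and of the 23 genes lower than in WT 19 were called in all 15 alternatives, the exceptions being Herc6, Zbp1, Samd9l and Parp14. Leaving out 1 library gave 22 to 25 calls for delCsn1s2b-E against WT, 10 to 18 against delCsn3-PE, 0 to 2 for delCsn3-PE against WT, 0 to 3 and 0 to 2 for ΔSE against WT at p6 and p18, 9 to 12 and 16 to 20 for p18 against p6 in WT and ΔSE, and 0 to 6 for the test of whether the stage change differed. For delCsn1s2b-E against delCsn3-PE, fitting only the 2 groups gave 4 calls, where the spread is estimated from 5 libraries. For delCsn3-PE against WT, library totals alone gave 7, no filter beyond 1 read 5 and all 19 libraries in 1 model 6. For ΔSE against WT at p6, DESeq2, no filter beyond 1 read and all 19 libraries in 1 model gave 1 each. At p18, DESeq2 gave 3 and the 2 groups alone 7, and DESeq2 gave 4 for the difference in stage change. With 1 factor of unwanted variation no gene was called for p18 against p6 in WT (0) or ΔSE (0), and in ΔSE Mx2 turned to 0.26, Slfn5 to 0.020 and Ifi27 to 0.44. With library totals alone in ΔSE, Ddx58 turned to −0.21, Ifih1 to −0.12, Eif2ak2 to −0.11, Irf9 to −0.10 and Ifi35 to −0.48. Library totals alone also moved the median of all genes to 0.40 for delCsn1s2b-E against WT, with 2 genes higher (Cmpk2 and Eif2ak2) and 19 lower. The cause was not tested in these cases.

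Replicate numbers did not pair the libraries. Same-numbered libraries of different groups had deviations that correlated between −0.17 and 0.19 (19 pairs, WT and ΔSE) and between −0.43 and 0.26 (7 pairs, p18 lines). With a replicate block, 10 genes were called for delCsn1s2b-E against delCsn3-PE and 0 for delCsn3-PE against WT, and the other counts stayed within 1.5 times of those without it. Genes with under 10 reads per library, such as Mx1 and Mx2 in delCsn1s2b-E, are limited by depth, and 3 reads corresponded to 0.0805 to 0.281 normalized CPM.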
